A study of Sus scrofa with 21 samples.

Results

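The genes that move calcium in and out of the cytosol of the heart muscle cell were followed in hearts of newborn to 4-week-old pigs. The set was chosen by name: 9 genes were asked for, and 7 of them (RYR2, CACNA1C, CACNB2, ATP2A2, PLN, CASQ2 and SLC8A1) had a row under their deposited gene name, of 25880 genes in the table and 15359 tested. JPH2 had no row under its name and was not analysed here. A row for TRDN, with no deposited name, was matched by its gene identifier through a reference table of names, so its values are given beside those of the 7 genes but are not counted with them. All 7 genes passed the filter on low counts.

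RNA from 21 pigs was sequenced, with 1 library per pig and 2 or 3 pigs in each of 8 groups. All came from 1 commercial farm and were fed colostrum and then milk with added iron, and the labels name no transgene or drug. The uninjured groups, called naive after the sample titles, were collected on postnatal day 1 (n = 2), 3 (n = 2), 7 (n = 3), 14 (n = 3) and 28 (n = 3). The myocardial infarction (MI) groups had a permanent tie of the left descending coronary artery on postnatal day 1 and were collected on day 7 (n = 3), 14 (n = 3) and 28 (n = 2). The treatment protocol says that controls went through the surgery without the ligation, whereas the titles call them naive, and the labels do not settle which holds. MI tissue was the border zone of the ischaemia and control tissue the matching region. The labels do not give sex or litter. The p-values measure the spread between pigs within groups, estimated over the 8 groups together.

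With each heartbeat, calcium enters the cell through the L-type channel and opens ryanodine receptors in the membrane of the sarcoplasmic reticulum, the internal calcium store, which then releases the larger part of the calcium that drives contraction. Relaxation follows when the calcium pump SERCA2 returns calcium to the store and the sodium-calcium exchanger carries the rest out of the cell. The newborn mammalian heart is known to rely more on calcium entry and exchange across the cell membrane, with the store and its junctions maturing after birth. Members including ATP2A2, CACNA1C, CACNB2, PLN and SLC8A1 are also expressed in smooth muscle or other cells. In whole tissue the level of any member is therefore not taken as that of heart muscle cells alone.

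The members lie on 6 pig chromosomes in the Sscrofa11.1 build, which the submitters' processing notes also name. Their RefSeq genes are RYR2 (chr14:53652140-54406691, minus strand), CACNA1C (chr5:69016954-69448428, plus), CACNB2 (chr10:44321954-44887410, plus), ATP2A2 (chr14:31674659-31744981, plus), PLN (chr1:43449354-43458925, minus), CASQ2 (chr4:104918204-104984019, plus) and SLC8A1 (chr3:99823503-100257306, plus). The 200 bases just before the RefSeq gene start are shown for ATP2A2 and PLN, the pair whose levels moved together most closely, and for CACNB2 and CASQ2, which were low in both MI libraries of day 28. They were read 5' to 3' on the gene's strand from chr14:31674459-31674658, chr1:43458926-43459125, chr10:44321754-44321953 and chr4:104918004-104918203. Capitals mark matches, on either strand, to the letters AGGTCA, a motif of nuclear receptors (written as TGACCT where it lies on the other strand), and AGATAA, a form of the GATA factor motif.
ATP2A2: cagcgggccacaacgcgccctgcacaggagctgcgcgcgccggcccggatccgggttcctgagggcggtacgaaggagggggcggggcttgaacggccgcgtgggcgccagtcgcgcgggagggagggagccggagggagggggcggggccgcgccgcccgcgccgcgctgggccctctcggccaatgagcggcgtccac
PLN: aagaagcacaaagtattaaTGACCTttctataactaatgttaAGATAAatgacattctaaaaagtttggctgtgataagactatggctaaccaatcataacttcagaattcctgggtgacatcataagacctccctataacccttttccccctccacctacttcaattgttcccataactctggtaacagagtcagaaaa
CACNB2: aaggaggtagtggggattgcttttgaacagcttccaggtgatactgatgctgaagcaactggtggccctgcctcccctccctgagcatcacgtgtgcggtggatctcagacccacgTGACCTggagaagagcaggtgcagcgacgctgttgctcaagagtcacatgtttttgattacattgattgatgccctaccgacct
CASQ2: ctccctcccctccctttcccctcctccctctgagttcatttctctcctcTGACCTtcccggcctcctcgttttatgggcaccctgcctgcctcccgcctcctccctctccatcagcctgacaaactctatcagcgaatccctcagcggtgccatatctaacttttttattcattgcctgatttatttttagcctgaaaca
The window of ATP2A2 was 79.5% G and C and that of PLN 36.5%, with 52.5% for CASQ2 and 53.5% for CACNB2. AGGTCA occurred once in the windows of PLN, CACNB2 and CASQ2 and in 0 of those of ATP2A2, RYR2, CACNA1C and SLC8A1, while 9.97% of 19556 windows of the same length before protein-coding genes held it. AGATAA was in the PLN window alone among the 7 and in 6.14% of all windows. CCGCCC, a letter run bound by Sp1-type factors, had 4 matches before ATP2A2 and 2 each before RYR2 and CACNA1C, and was in 43.8% of all windows. The CArG box, searched by its usual consensus, matched in none of the 7 windows, against 0.997% of all. The MEF2 site was searched in a form stricter than its usual consensus. That form matched in none of the 7 windows, against 0.384% of all. The CASQ2 window holds ttatttttag near its end, which fits the usual consensus. These counts therefore do not show that the windows lack a MEF2 site. A match is a description of these letters. Other forms of the MEF2 and GATA factor motifs, and other start sites of these genes, were not searched.

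Total counts per library ranged from 37002909 to 95559841, and the 7 genes together took 0.3503% to 1.025% of them. The smallest member count in a library was 1046, so that counting error is small beside the differences between pigs. Of 15 structural genes of heart muscle cells fixed as markers, 12 were in the table and their summed level was 41480 to 104700 CPM, the read counts scaled to library size. TNNI3, cardiac troponin I, was listed at 0 counts in every library, and the other 11 passed the filter. The gene ENSSSCG00000035520 was under 100 CPM in 4 libraries, against 2819 to 8808 CPM elsewhere. These were the replicate 2 pigs of both day 28 groups and the replicate 3 pigs of the MI day 7 and the naive day 14 groups. The labels name no batch, and values that moved by over 1.5 times without these libraries are given for the MI comparisons of days 7 and 28 and their interaction.

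Within a library, PLN and ATP2A2 had the highest read density of the members and CACNB2 the lowest. Per kilobase of RefSeq exon, the median over 21 libraries was 747 CPM per kb for PLN and 582 for ATP2A2. It was 163 for CASQ2, 58.9 for SLC8A1, 55.6 for RYR2 and 3.2 for CACNB2, and CACNA1C ran from 5.58 to 25.4. This order was the same in 14 of the 21 libraries, and RYR2 lay above SLC8A1 in the other 7. RefSeq exons were used in place of the unstated gene models behind the counts, and the PLN model of 735 bases is short, so that its density depends most on that choice.

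**Figure D1:**
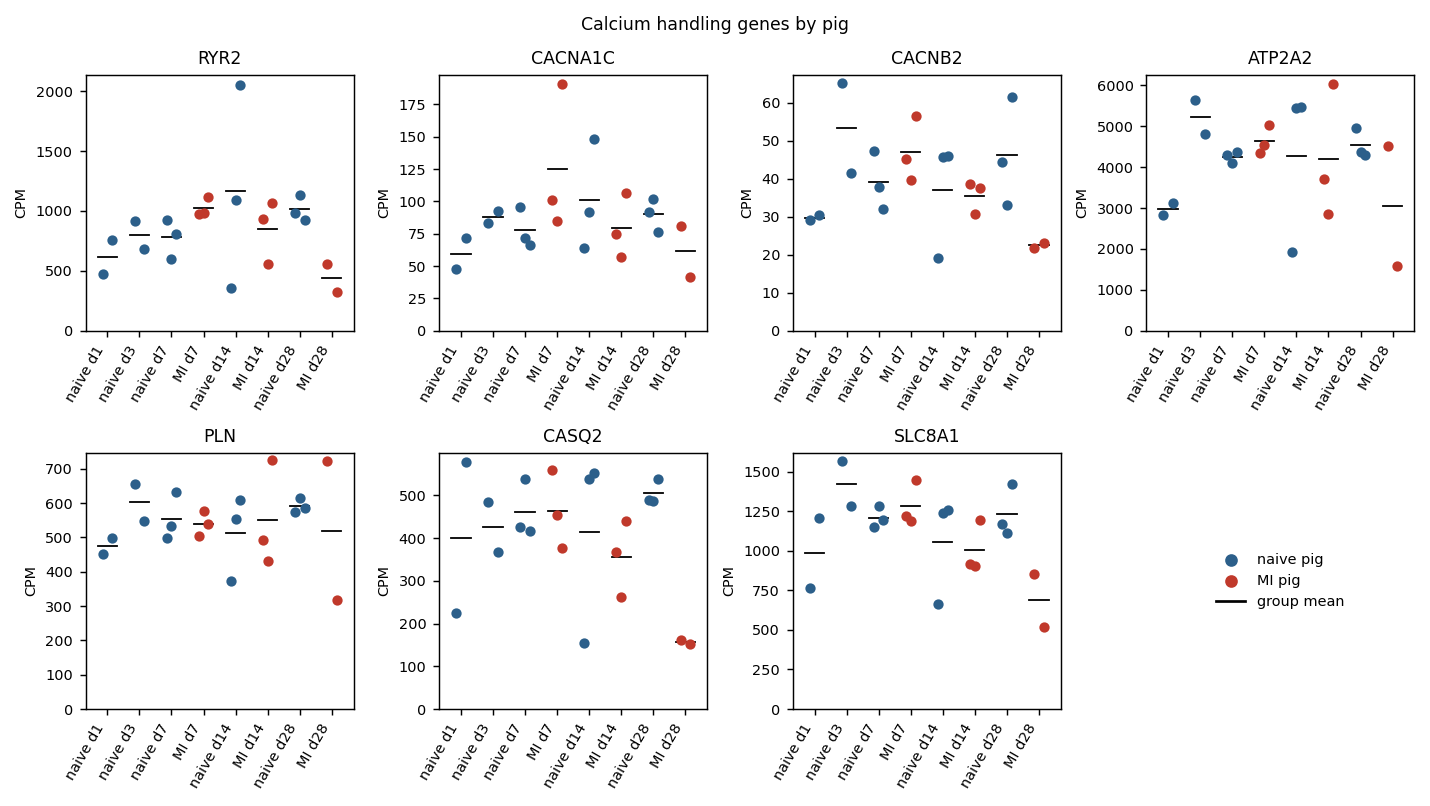
Level of each gene in each pig (points, CPM, linear axis from 0) for the 8 groups in order of age, naive in blue and MI in red, with a line at the group mean. In MI day 28 hearts both CASQ2 points lie at 151.6 and 161.1 CPM, under the 3 naive day 28 points, while the points of ATP2A2 and PLN lie far apart.

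CASQ2 was the member with the largest difference on day 28. It encodes cardiac calsequestrin, the protein that binds calcium inside the store. Its level was 161.1 and 151.6 CPM in MI day 28 hearts, against 489, 486.7 and 539 CPM in naive day 28 hearts. The groups did not overlap, with both MI pigs below every naive pig of that age. CASQ2 fell to 0.31 of the naive level (log2 fold change -1.69, 95% interval -2.68 to -0.70, SE 0.46, edgeR quasi-likelihood adjusted p = 0.0392). It was the 1 member of 7 called on day 28, where edgeR called 6.86% of all tested genes (2.38% lower). On days 7 and 14 CASQ2 was 560.5, 454.9 and 376.9 CPM in MI against 425.3, 537.9 and 417 CPM in naive hearts, and 366.5, 263.3 and 439.5 CPM against 153.6, 538.5 and 553.1 CPM. Groups overlapped at both ages. The lowest naive day 14 pig was thus at the level of the MI day 28 pair. The newborn pigs were at 224.4 and 578.2 CPM on day 1 and 484.4 and 367.9 CPM on day 3.

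The CASQ2 call is close to the threshold. Its log2 fold change was -1.71 to -1.15 over 12 other fits, and it passed in 3 of them, those with DESeq2, other size factors or no filter (adjusted p = 0.00445 to 0.139 over the 12). It was lost when any of the 5 day 28 libraries was left out, with adjusted p from 0.0699 to 0.121.

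The channel subunit gene CACNB2 showed a similar picture without passing the test. It encodes a beta subunit that brings the L-type channel to the membrane. CACNB2 was at 21.91 and 23.04 CPM in MI day 28 hearts and at 44.43, 33.1 and 61.65 CPM in naive hearts, with no overlap (log2 fold change -1.05, SE 0.34, edgeR adjusted p = 0.0651). The 2 MI pigs were nearly alike, and the naive pigs spread widely. DESeq2 called it (-0.99, adjusted p = 0.0383). On day 7 CACNB2 was 45.32, 39.56 and 56.61 CPM in MI and 47.25, 37.97 and 32.01 CPM in naive hearts, and on day 14 it was 38.6, 30.65 and 37.55 against 19.21, 45.87 and 46.12 CPM. The day 1 pigs were at 29.1 and 30.35 CPM and the day 3 pigs at 65.15 and 41.45 CPM, so that day 3 had the highest mean of the 8 groups and MI day 28 the lowest.

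The pump gene ATP2A2 and its inhibitor PLN did not give a common result in the MI day 28 pair. ATP2A2 encodes SERCA2, and PLN encodes phospholamban, a small membrane protein that slows the pump until it is phosphorylated. ATP2A2 was at 4528 and 1575 CPM in the MI day 28 libraries, against 4945, 4368 and 4297 CPM in naive hearts. PLN was at 722.7 and 317.2 CPM, against 575.4, 615.2 and 586.4 CPM. Replicate 1 lay within or above the naive pigs for both genes, and replicate 2 below all of them. The log2 fold changes were -0.57 for ATP2A2 (95% interval -1.51 to 0.37, edgeR adjusted p = 0.414) and -0.19 for PLN (-0.83 to 0.45, adjusted p = 0.714). Without MI replicate 2 they were 0.027 and 0.32, and without MI replicate 1 they were -1.50 and -0.87, with no call in either fit.

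At the earlier ages both genes lay close together in most groups. ATP2A2 was 4344, 4540 and 5029 CPM in MI and 4294, 4104 and 4375 CPM in naive hearts on day 7, and 3711, 2862 and 6040 CPM in MI and 1913, 5450 and 5465 CPM in naive hearts on day 14. PLN was 505.1, 575.7 and 538 CPM in MI and 498.6, 533.8 and 631.1 CPM in naive hearts on day 7. On day 14 PLN was 493.4, 432.7 and 725.9 CPM in MI and 374.2, 552.3 and 608.2 CPM in naive hearts. Groups overlapped for both genes at both ages. Day 1 hearts had 2838 and 3134 CPM of ATP2A2 and 452.8 and 498 CPM of PLN, the lowest group means of the 8 for each gene, and day 3 hearts had 5643 and 4814 CPM and 656.2 and 548.8 CPM, the highest.

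RYR2, the calcium release channel, SLC8A1, the sodium-calcium exchanger NCX1, and CACNA1C, the pore of the L-type channel, were lower on average in MI day 28 hearts, and none was called. RYR2 was at 553.1 and 323.6 CPM against 985.6, 1137 and 926.6 CPM, with no overlap (log2 fold change -1.21, SE 0.50, edgeR adjusted p = 0.13). SLC8A1 was at 855.2 and 518 CPM against 1168, 1114 and 1423 CPM, also with no overlap (-0.85, SE 0.30, adjusted p = 0.0855). CACNA1C was at 80.71 and 41.86 CPM against 91.94, 102 and 76.23 CPM, where replicate 1 lay among the naive pigs (-0.56, 95% interval -1.41 to 0.30, adjusted p = 0.38). In each of these genes replicate 2 was the lower MI library. SLC8A1 passed with DESeq2 (adjusted p = 0.0488) and without MI replicate 1 (-1.23, adjusted p = 0.0466), and RYR2 and CACNA1C passed in none of 12 other fits. Without MI replicate 2, SLC8A1 was -0.50 and CACNA1C -0.13, and without MI replicate 1 CACNA1C was -1.07.

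**Figure D2:**
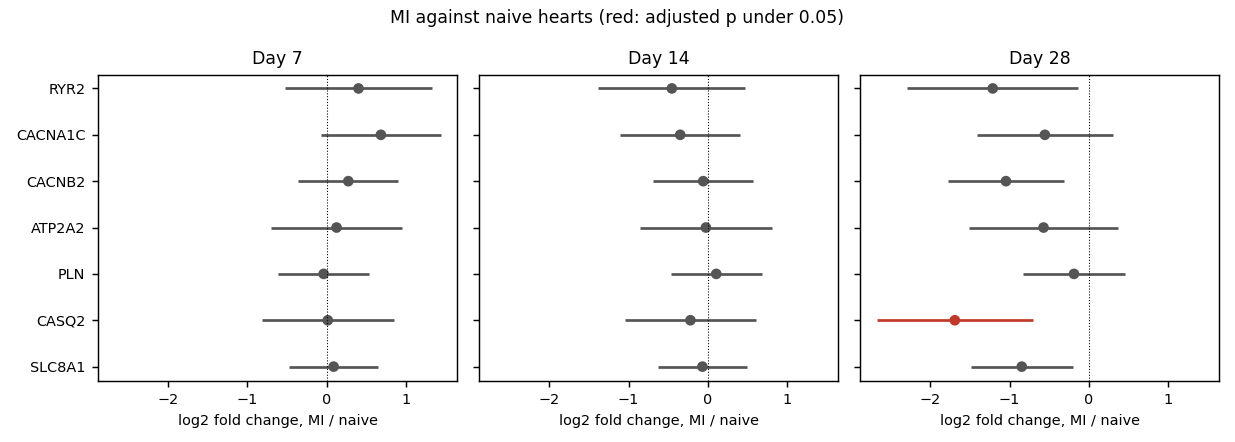
Log2 fold change of MI against naive hearts (points) with 95% intervals (lines, from the standard error with 13 residual degrees of freedom) for each gene on days 7, 14 and 28, with red for an adjusted p under 0.05. Every member lies left of 0 on day 28, from -1.69 for CASQ2 to -0.19 for PLN, and CASQ2 alone is red.

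Over the 7 genes the median log2 fold change on day 28 was -0.85, against 0.01 over all tested genes, and all 7 were negative. The median was -0.50 without MI replicate 2, -1.23 without MI replicate 1 and -0.38 with libraries scaled to structural genes of heart muscle. For CASQ2, CACNB2, RYR2 and SLC8A1, 4 of the 7, both MI pigs lay under all naive pigs, as they did for 21.4% of all tested genes, while 0 of 7 were higher without overlap, against 16.4%. An unadjusted p under 0.05 was found for the same 4 genes, and for 4144 of 15359 genes. TRDN, which encodes triadin, a partner that links calsequestrin to the ryanodine receptor, was at 67.47 and 33.53 CPM in MI and 69.69, 84.78 and 44.21 CPM in naive hearts, which overlap (-0.39, SE 0.35, edgeR adjusted p = 0.488). Without MI replicate 2 TRDN stood at 0.060.

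Other marker lists differed between these day 28 libraries too. The summed level of the 12 heart muscle genes was 58540 and 41480 CPM in MI replicates 1 and 2 and 76490 to 94360 CPM in naive hearts, with 1 of 11 tested called lower. By the same test 6 of 9 macrophage, 4 of 7 smooth muscle, 2 of 8 fibroblast, 2 of 4 adipocyte and 2 of 5 lymphocyte genes were called higher. Macrophage markers (9 genes, none at 0) summed to 287.1 and 3023 CPM against 63.17 to 338.7 CPM, and fibroblast markers (8 genes, none at 0) to 1509 and 17230 CPM against 2792 to 5391 CPM. Smooth muscle and pericyte markers (7 genes, none at 0) summed to 1653 and 698.8 CPM against 872.8 to 961.9 CPM. Replicate 2 was the library high in macrophage and fibroblast transcripts and replicate 1 the one high in smooth muscle transcripts. Endothelial markers (6 genes, none at 0) stood at 1165 and 835.9 CPM against 676.7 to 934.9 CPM. Adipocyte markers (5 genes) summed to 641.4 and 141.7 CPM against 132.3 to 243.8 CPM, and lymphocyte markers (5 genes) to 4.786 and 120.5 CPM against 3.065 to 9.714 CPM. Genes listed as skeletal muscle markers (5 genes, 2 at 0) summed to 5920 and 8328 CPM against 13900 to 27430 CPM. That list includes ACTA1 and CKM, and its sum is not taken as a measure of skeletal muscle tissue. The part of the cell types above in the member differences was not tested, and in whole tissue fewer heart muscle cells and less RNA per cell cannot be told apart.

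When libraries were scaled to 11 heart muscle structural genes in place of all genes, the differences of day 28 shrank. CASQ2 stood at -1.15 (edgeR adjusted p = 0.0642) and RYR2 at -0.71 (0.186). CACNB2 was at -0.55 (edgeR adjusted p = 0.30), SLC8A1 at -0.38 (0.373) and PLN at 0.27 (0.492). This scaling moved the median of all genes from 0.01 to 0.56. CASQ2 was still the lowest of the 7, while PLN changed sign. On this scale the groups overlapped for CACNB2, at 23.15 and 35.47 CPM in MI with the lowest naive pig at 22.65 CPM. They also overlapped for SLC8A1, at 903.4 and 797.6 CPM with the lowest naive pig at 762.2 CPM. CASQ2 and RYR2 still had no overlap.

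Infarction made no call among the 7 genes on days 7 and 14. On day 7, 0 of 7 members and 0% of all genes were called by edgeR, with 0 members and 1905 genes at an unadjusted p under 0.05, and with DESeq2 0 members and 268 genes. The members' median was 0.12, from -0.04 to 0.68, and -0.05 with heart muscle scaling. The largest was CACNA1C, at 100.9, 84.51 and 190.6 CPM in MI against 96.03, 71.71 and 66.53 CPM (0.68, 95% interval -0.07 to 1.44, edgeR adjusted p = 0.44). The highest of these pigs was MI replicate 3, one of the 4 libraries above, and the others overlapped. CACNA1C stood at 0.25 without that library and at 0.21 without all 4. RYR2 was the 1 member without overlap, at 977.8, 985.4 and 1120 CPM in MI against 926, 599.4 and 811.2 CPM (0.40, adjusted p = 0.746, and 0.24 without naive replicate 2), where 13.9% of all genes had MI above naive without overlap and 10.4% below. With heart muscle scaling RYR2 was also at 0.24 and its groups overlapped. The lowest MI pig was then at 922 CPM and the highest naive pig at 941.5 CPM. SLC8A1 was 1187 to 1444 CPM in MI and 1150 to 1284 CPM in naive hearts.

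On day 14, 0 of 7 members and 0% of all genes were called by edgeR, with 0 members and 821 genes at an unadjusted p under 0.05, and with DESeq2 0 members and 15 genes. The median was -0.07, from -0.45 to 0.11, and had no stable sign (-0.38 to 0.31 over the other fits, with -0.34 without naive replicate 1, -0.38 without MI replicate 3 and 0.14 without naive replicate 3). No member had groups without overlap, whereas 3.73% of all genes were higher and 4.49% lower without overlap. RYR2 ranged from 359.7 to 2052 CPM among the 3 naive pigs and from 556.2 to 1070 CPM in MI. CACNA1C ranged from 64.06 to 147.9 CPM in naive and 57.29 to 106.6 CPM in MI hearts, and SLC8A1 from 665.4 to 1258 and 903.1 to 1196 CPM.

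Averaged over the 3 ages with equal weight, 0 of 7 members were called by edgeR, against 4.43% of all genes (2.36% higher and 2.07% lower), and 0 by DESeq2. CASQ2 came nearest, at -0.63 (SE 0.23, unadjusted p = 0.0149, edgeR adjusted p = 0.12), the 1 member with an unadjusted p under 0.05. It passed in 1 of 24 other fits, the one without naive day 14 replicate 1 (-0.75, adjusted p = 0.0228). The median of the members was -0.28, with all 7 negative. It was -0.039 with heart muscle scaling, -0.079 without the 4 libraries low in ENSSSCG00000035520 and -0.16 without MI day 28 replicate 2, and 13 of 168 member values under the alternatives had the other sign.

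Whether the MI effect differed between ages was tested as an interaction. From day 7 to day 28 the estimate was negative in all 7 genes, at -1.70 for CASQ2, -1.61 for RYR2, -1.32 for CACNB2, -1.24 for CACNA1C, -0.93 for SLC8A1, -0.70 for ATP2A2 and -0.15 for PLN on the log2 scale. None was called, against 0.013% of all genes (edgeR adjusted p from 0.149 to 0.87, and DESeq2 0 of 7), though 5 of 7 had an unadjusted p under 0.05, as did 2924 of 15359 genes. CASQ2 passed when the 4 groups were fitted alone (-1.66, adjusted p = 0.0386). Without the 4 libraries low in ENSSSCG00000035520, PLN was 0.41, ATP2A2 -0.033, CACNA1C -0.25, SLC8A1 -0.54 and RYR2 -1.07. With heart muscle scaling PLN was 0.48 and CASQ2 -0.99. Over 18 other fits ATP2A2 ran from -1.59, without MI day 28 replicate 1, to -0.033, and CACNA1C from -1.73, without the same library, to -0.25. Without MI day 28 replicate 2, PLN was 0.39 and ATP2A2 -0.064, and without MI day 7 replicate 3 CACNA1C was -0.80. The members' median of -1.24 ran from -1.59 to -0.54. From day 7 to day 14, 0 members were called, against 0.00651% of all genes, with 0 at an unadjusted p under 0.05 and 0 by DESeq2. A difference of the MI effect between ages was therefore not shown for any member. Both interactions use the same day 7 hearts.

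In uninjured hearts the group mean of each of the 7 genes was higher on day 28 than on day 1, and none was called. The log2 fold changes were 0.72 for RYR2 (SE 0.49), 0.64 for CACNB2 (SE 0.33), 0.60 for ATP2A2 (SE 0.44), 0.60 for CACNA1C (SE 0.40), 0.33 for CASQ2 (SE 0.43), 0.32 for SLC8A1 (SE 0.29) and 0.32 for PLN (SE 0.30). edgeR called 0 of 7 members and 0% of all genes (lowest adjusted p of a member 0.867), with 0 members and 809 genes at an unadjusted p under 0.05, and DESeq2 called 0 members. Every day 28 pig was above both day 1 pigs for 5 of the 7 (RYR2, CACNA1C, CACNB2, ATP2A2 and PLN), as for 12.6% of all genes, with 0 of 7 the other way (12.5%). RYR2 went from 474.2 and 759.8 CPM on day 1 to 985.6, 1137 and 926.6 CPM. CACNA1C went from 47.51 and 71.63 to 91.94, 102 and 76.23 CPM. SLC8A1 overlapped, with 765.3 and 1208 CPM on day 1. The sign for CASQ2 rests on naive day 1 replicate 1, without which it was -0.20, RYR2 0.42, CACNA1C 0.33 and SLC8A1 0.032. Without the other day 1 pig these were 1.17, 1.10, 0.92 and 0.69. CACNB2 was 0.38 without naive day 28 replicate 3. With heart muscle scaling only RYR2 kept every day 28 pig above both day 1 pigs. Naive day 28 replicate 2 was then at 2989 CPM for ATP2A2, 421 for PLN, 69.83 for CACNA1C and 22.65 for CACNB2. Naive day 1 replicate 2 was above it, at 3164, 502.9, 72.33 and 30.64 CPM. The members' median was 0.36 on this scale, against 0.60 before, and that of all genes moved from 0.04 to -0.17.

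The steps between these ages were small. From day 1 to day 7 the median was 0.34 (0.12 without naive day 1 replicate 1 and 0.66 without replicate 2) and all 7 were positive, with 0 called (0% of all genes, and 0 members at an unadjusted p under 0.05 or by DESeq2). Naive groups did not overlap for ATP2A2, CACNB2 and PLN, where 11.8% of all genes were higher without overlap and 12.9% lower. From day 7 to day 28 the median was 0.13, or -0.16 with scaling to heart muscle genes, with 0 called (0% of all genes, and 0 members at an unadjusted p under 0.05 or by DESeq2), and RYR2 alone had no overlap, higher on day 28, against 10.6% of all genes higher and 7.76% lower. With that scaling RYR2 overlapped too, with the lowest day 28 pig at 777.7 CPM and the highest day 7 pig at 941.5 CPM. ATP2A2, CACNB2 and PLN still had no overlap between days 1 and 7 on this scale. Day 3 hearts had the highest group mean of SLC8A1, at 1566 and 1282 CPM, of ATP2A2, of PLN and of CACNB2. RYR2 was 917.2 and 680.3 CPM and CACNA1C 83.13 and 92.27 CPM at that age. With the 8 groups placed in order of their means, all 7 neighbouring pairs of groups overlapped for RYR2, CACNA1C, ATP2A2, PLN and SLC8A1, 1 of 7 pairs did not for CASQ2 and 2 did not for CACNB2. At least 1 such pair was found in 27% of all tested genes, and at least 2 in 2.88%.

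**Figure D3:**
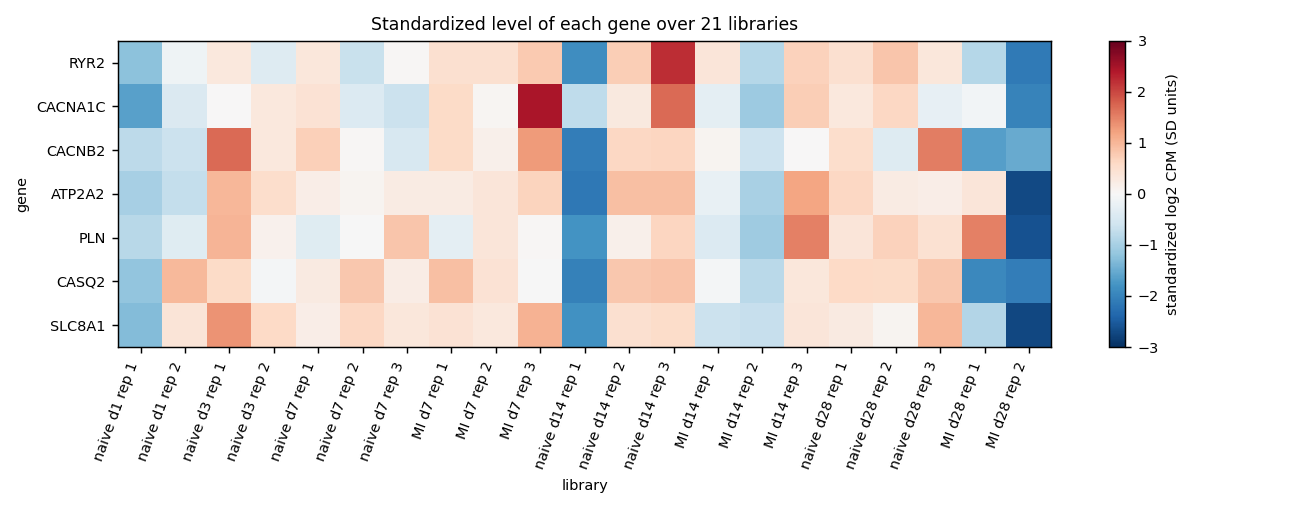
Standardized log2 CPM of each gene (rows) in each of 21 libraries (columns, naive and MI at each age side by side), with red above and blue below the gene's mean over all libraries, in SD units. Replicate 2 of MI days 14 and 28 is blue in every row, as is replicate 1 of naive days 1 and 14. The other MI day 28 library, replicate 1, is blue for CASQ2 and CACNB2 but red for PLN.

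The 7 genes varied together from pig to pig. Pearson's r of log2 CPM over 21 libraries, for the 21 pairs of members, had a median of 0.722 and ran from 0.44 (CACNB2 with PLN) to 0.896 (ATP2A2 with PLN). After each group's mean was removed, the median was 0.692 and ATP2A2 with PLN still had the highest r, 0.922, so that the pairing was also present among pigs of the same age and treatment. The libraries share scaling and tissue makeup, and no p is given. On the mean of the standardized levels, MI day 28 replicate 2 was lowest at -2.25, followed by naive day 14 replicate 1 at -1.78 and naive day 1 replicate 1 at -1.13. Control pigs were therefore among the lowest libraries. Naive day 14 replicate 1 had 1913 CPM of ATP2A2, 153.6 of CASQ2, 359.7 of RYR2 and 19.21 of CACNB2. Its fibroblast markers summed to 7503 CPM against 5395 and 2367 CPM in the other naive day 14 pigs, its endothelial markers to 1238 against 893.5 and 1185 CPM, and its smooth muscle markers to 1137 against 853 and 1056 CPM. Its macrophage markers, at 339.6 CPM, lay between 311.4 and 396.5 CPM, and its heart muscle structural genes summed to 61530 CPM against 84990 and 104700 CPM.

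Ratios of read counts between members within a library do not depend on how libraries are scaled. PLN to ATP2A2 was 0.1596 and 0.2014 in MI day 28 replicates 1 and 2, and 0.1163 to 0.1408 in the naive day 28 hearts. Over the 19 libraries outside the MI day 28 group it ran from 0.1014 to 0.1956, with a median of 0.1268. CASQ2 to ATP2A2 was 0.03558 in MI day 28 replicate 1, the lowest of the 21 libraries, and 0.09628 in replicate 2, against 0.07277 to 0.1845 in the 19 others. CASQ2 to RYR2 was 0.2913 and 0.4686 in the MI day 28 pair, within the range of the others (0.2695 to 0.8975). SLC8A1 to ATP2A2 (0.1889) and CACNB2 to CACNA1C (0.2715) were also lowest of the 21 libraries in replicate 1. The 19 others ran from 0.198 to 0.3853 and from 0.297 to 0.8088, and replicate 2 was at 0.3289 and 0.5503. On the CPM scale CASQ2 was nearly alike in the 2 MI day 28 hearts, while ATP2A2 was 2.88 times as high in replicate 1. That likeness depends on the scaling. With heart muscle scaling CASQ2 was at 170.2 CPM in replicate 1 and 233.5 CPM in replicate 2. These ratios were chosen after the values were seen and carry no test.

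**Figure D4:**
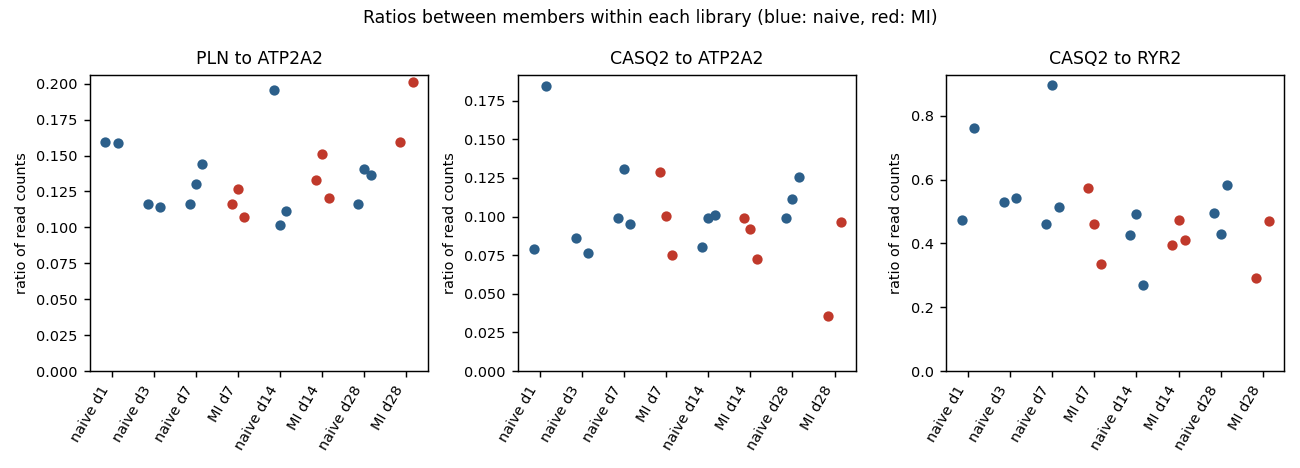
Ratio of read counts of PLN to ATP2A2, CASQ2 to ATP2A2 and CASQ2 to RYR2 within each library (points, linear axis from 0), by group, naive in blue and MI in red. One MI day 28 library has a CASQ2 to ATP2A2 ratio of 0.03558, below every other point, and the other has the highest PLN to ATP2A2 ratio, 0.2014.

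Of 93 further genes of calcium handling, fixed as a list with earlier results known, 87 were in the table and 84 were tested. On day 28, 5 rose and 1 fell in MI, against 4.47% and 2.38% of all genes. CACNA1H, a T-type calcium channel of the fetal heart, rose from 7.264 to 13.46 CPM in naive hearts to 41.08 and 51 CPM in MI hearts (log2 fold change 2.19, SE 0.41, edgeR adjusted p = 0.0139), and was called in 10 of 12 other fits. ITPR3, an inositol trisphosphate receptor, rose by 1.35 (SE 0.35, adjusted p = 0.034), and REM1, a small GTPase that restrains the L-type channel, by 1.26 (SE 0.35, adjusted p = 0.0417). SRL, the store protein sarcalumenin, was called in 4 of 12 other fits and fell from 1397 to 1779 CPM in naive hearts to 634.8 and 718.3 CPM (-1.28, SE 0.33, adjusted p = 0.0346). SDF4, a calcium-binding protein of the Golgi lumen, rose by 0.72 and the channel partner CACNA2D3 by 3.02 (adjusted p = 0.0425 and 0.0445). The last of these was at 1.303 and 15.31 CPM in MI, and without MI replicate 1, the high library, it stood at 0.37. ITPR3 and REM1 stood at 0.72 and 0.80 without that library and were not called. Of 12 other fits, ITPR3 was called in 7, REM1 in 6, CACNA2D3 in 5 and SDF4 in 3.

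The roles on the list differed in their medians on day 28. Over the list the median was -0.04, against 0.01 over all genes, and 23 of 84 had an unadjusted p under 0.05. By role, 2 of 10 L-type channel partners (median 0.95) and 2 of 12 other calcium channels (median 0.54) rose. The partner CACNA2D1 went the other way and was not called, at 65.93 and 113.7 CPM in MI against 158.1 to 167 CPM in naive hearts. The medians weigh genes of low and high level alike. Among 5 lumen proteins (median -0.44) 1 rose and 1 fell. The 14 genes of the ryanodine receptor complex and junction had a median of -0.34. None of 14 tested genes of the ryanodine receptor complex and the junction, 8 of pumps and their regulators, 9 of exchangers and mitochondrial uptake and 26 of beta-adrenergic and calmodulin signalling was called. On days 7 and 14, edgeR and DESeq2 each called 0 of 84, with 8 and 4 at an unadjusted p under 0.05. In the interactions of days 14 and 28 with day 7 edgeR called 0 of 84, with 6 and 14 at an unadjusted p under 0.05, and DESeq2 called 0 and 1.

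Over the mean of the 3 ages, 3 of the 84 rose and 1 fell, where 2.36% of all genes rose and 2.07% fell. CACNA1H rose by 1.26 (SE 0.22, edgeR adjusted p = 0.0144) and kept the call in 24 of 24 other fits. CASQ1, the skeletal form of calsequestrin, which is expressed at a low level in the heart, fell by -1.16 (SE 0.24, adjusted p = 0.0196), from 9.114 to 30.17 CPM in naive to 3.678 to 10.07 CPM in MI hearts, with the call kept in 22 of 24. ATP2B1, a calcium pump of the cell membrane, rose by 0.41 (SE 0.11, adjusted p = 0.0404) and RYR3, a minor ryanodine receptor, by 3.57 (SE 0.94, adjusted p = 0.0426), each with the call in 10 of 24. RYR3 was at most 4.011 CPM in any MI library and at most 0.1574 CPM in the naive groups of days 7 to 28. Without MI day 7 replicate 1 its edgeR adjusted p was 0.398.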

How the data were processed

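The deposited table holds unnormalized read counts by gene, with a column for each pig. Per the submitters' processing notes, the tools were Trim Galore, STAR 2.5.2, HTSeq 0.6.1 and DESeq2, with the Sscrofa11.1 build. Annotation release and strand setting: not given in the sources used here. Antisense and sense reads may therefore be mixed. All 21 columns matched a sample title by pig number, group and day. Replicates are numbered in accession order, which pairs nothing.

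In edgeR 4.0.16, filterByExpr left 15359 of 25880 genes, and TMM factors scaled the libraries. A model with a mean for each group (glmQLFit, robust, 13 residual degrees of freedom, biological coefficient of variation 0.373) used the 21 libraries together. The 9 comparisons were two-sided quasi-likelihood tests, with p-values adjusted by Benjamini-Hochberg across the tested genes and a threshold of 0.05. SE values were derived from the F statistic. CPM use the scaled library sizes, and log2 CPM a prior count of 2. In 18 pairs within groups the chi-square per degree of freedom was at least 48.5, so no library was a duplicate of another in its group. The MI day 28 pair was the least alike of these, at 922.5 and with the lowest Pearson's r of log2 CPM, 0.9128. Pairs across groups were not compared.

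The members, lists and tests were chosen with earlier results of these data known. Named were all members and, from the further calcium list, up to 4 called genes with the smallest adjusted p per comparison. SDF4, CACNA2D3 and CACNA2D1, the last of them not called, were added to these after their values were seen. DESeq2 1.42.0, other size factors, no filter, scaling to heart muscle genes, fits to the compared groups alone, a term for the 4 libraries low in ENSSSCG00000035520, leaving those out, and leaving out each pig were run as alternatives. Of the genes most like the members in level, 1 is not reported here. R 4.3.3 and matplotlib 3.10.9 were used.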

Additional observations from a re-analysis of the deposited data

How the results depend on the processing

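The counts of members called were 0 in every alternative for the comparisons of days 7 and 14, the interaction of days 14 and 7 and the 3 naive comparisons. On day 28 edgeR called 1 member, and the count was 3 with DESeq2 and 0 with scaling to heart muscle genes, with the compared groups alone, with a term for the 4 libraries low in ENSSSCG00000035520 and without those 4. It was 0 to 1 when a pig was left out. For the mean of the 3 ages it was 0 to 1 with a pig left out, and for the interaction of days 28 and 7 it was 1 with the 4 groups alone. The sign changed for PLN on day 28 with heart muscle scaling (0.27) and without the 4 libraries (0.33), and in the interaction of days 28 and 7 (0.48 and 0.41). TRDN on day 28 was 0.14 and 0.26 under the same settings. With a pig left out, day 28 values ran from -1.50 to 0.027 for ATP2A2, -0.87 to 0.32 for PLN and -0.95 to 0.060 for TRDN, the PLN interaction from -0.80 to 0.39, and CASQ2 in naive day 28 against day 1 from -0.20 to 1.17. Of 952 member values under the alternatives, 863 kept their sign and 8 passed the threshold. The cause of these changes was not tested.

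Without the 4 libraries, CASQ2 on day 28 was -1.66 (edgeR adjusted p = 0.139), CACNB2 -1.26, RYR2 -0.78, SLC8A1 -0.59, CACNA1C -0.04 and ATP2A2 -0.01. The MI day 28 group then held replicate 1 alone, assumed to vary like the other groups. With a term for these libraries CASQ2 was -1.70 (adjusted p = 0.0527). The 1053 genes called on day 28 became 2187 with DESeq2, 2455 with heart muscle scaling (2426 of them higher), 646 with the term, 2 with the groups alone and 17 to 1167 with a pig left out. For the mean of the 3 ages, 681 became 1609 with DESeq2, 436 with the groups alone, 433 without the 4 libraries and 186 to 1082 with a pig left out. For the interaction of days 28 and 7, 2 became 717 with DESeq2, 301 with heart muscle scaling, 133 with the groups alone, 367 without the 4 libraries, 1 with the term and 1 to 539 with a pig left out. Elsewhere DESeq2 called 268 (day 7), 15 (day 14), 32 (interaction of days 14 and 7), 12 (naive day 7 against day 1) and 52 (naive day 28 against day 7). Of the further calcium genes, the 6 calls of day 28 became 13, 16, 3 and 0 (DESeq2, heart muscle scaling, the term, the groups alone) and 0 to 6 with a pig left out. Their 4 calls over the mean became 9, 8 and 2 (DESeq2, heart muscle scaling, the term) and 2 to 7 with a pig left out. No paired analysis was possible because the labels carry no replicate numbers or pairing.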

Other observations

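Among the genes whose levels over the 21 libraries were most like the mean standardized level of the 7 members were, by Pearson's r of log2 CPM, ANK3 (0.947), RABGAP1 (0.944), DMD (0.943) and AKAP6 (0.943). DMD encodes dystrophin of the muscle membrane, ANK3 an ankyrin that anchors ion channels, and AKAP6 an anchor for protein kinase A at the ryanodine receptor and one of the further calcium genes listed. RABGAP1 encodes a regulator of Rab GTPases. The libraries share scaling and tissue makeup, and the values carry no p. AKAP6 was at 74.39 and 121.2 CPM in MI and 168 to 214.8 CPM in naive hearts on day 28, and was not called (log2 fold change -0.99, SE 0.33, edgeR adjusted p = 0.0698). Both MI pigs were below all naive pigs, as for 21.4% of all tested genes.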
